A study of Homo sapiens with 8 samples.

Results

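The miR-148/miR-152 family was examined in small RNA libraries of 786O, a cell line derived from a human clear cell renal cell carcinoma (ccRCC). Its members were taken by name as both arms of the miR-148a, miR-148b and miR-152 hairpins (hsa-miR-148a-3p, hsa-miR-148a-5p, hsa-miR-148b-3p, hsa-miR-148b-5p, hsa-miR-152-3p and hsa-miR-152-5p), which are 6 of the 3112 miRNAs in the count table. The prefix hsa is left out below. The study sequenced 4 circSOD2-sh samples, in which a short hairpin RNA was directed against the circular RNA circSOD2, and 4 negative control (NC) samples of the same line. Per the labels, both plasmids were introduced with Lipofectamine 3000 and RNA was taken 48 h later, whereas the study's methods describe lentiviral knockdown with puromycin selection. Which shRNA the circSOD2-sh samples carried is not given in the sources used here, and nothing says that the 4 samples of a group were separate cultures, so p-values measure only the spread between these samples.

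A miRNA hairpin yields a 5p and a 3p arm, of which one (the guide) is usually kept by Argonaute and the other (the passenger) is mostly degraded. The guide pairs with its targets mainly through its seed, bases 2 to 8 from the 5′ end, so miRNAs with a common seed are counted as a family with overlapping targets. The miR-148/miR-152 guides are known to target DNA methyltransferase transcripts such as DNMT1, and miR-148a-3p is abundant in liver and pancreas. In several tumours the genes of miR-148a and miR-152 are known to be silenced by DNA methylation.

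The 3 guide arms are shown because they carry the shared seed, written in capitals, and because their distances from each other bear on how reads can be told apart. The sequences are those of RefSeq on GRCh38.p14.
miR-148a-3p: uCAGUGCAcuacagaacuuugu
miR-148b-3p: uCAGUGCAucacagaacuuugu
miR-152-3p: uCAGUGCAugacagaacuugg
With positions counted from 1 at the 5′ end, miR-148a-3p and miR-148b-3p differ at 2 bases (C9U and U10C). The guide of miR-152 is 21 bases long and differs from miR-148b-3p at 2 of the 21 bases compared (C10G and U20G) and from miR-148a-3p at 3 (C9U, U10G and U20G). Whether mismatches were allowed when reads were assigned is not given in the sources used here, so a small exchange of reads between these arms cannot be told apart from their own reads. Among the 2370 mature miRNAs of the RefSeq table, no other miRNA shares this seed.

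The passenger arms carry other seeds.
miR-148b-5p: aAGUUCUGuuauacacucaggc
miR-152-5p: aGGUUCUGugauacacuccgacu
The seed of miR-148b-5p is shared in the RefSeq table by miR-6874-3p, which had 1 count over all 8 libraries, and no other mature miRNA of that table shares the seed of miR-152-5p. The remaining passenger arm is miR-148a-5p.

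The 3 hairpins lie on different chromosomes of GRCh38. MIR148A lies on chromosome 7 from 25949919 to 25949986 on the minus strand, outside any other gene of GENCODE release 29 and 516 bases from the long non-coding RNA gene AC010719.1. MIR148B lies on chromosome 12 from 54337216 to 54337314 on the plus strand, in an intron of COPZ1 and of the overlapping gene AC078778.2. MIR152 lies on chromosome 17 from 48037161 to 48037247 on the minus strand, in an intron of COPZ2. COPZ1 and COPZ2 encode the paralogous zeta subunits of the COPI vesicle coat. Neither intronic hairpin overlaps an annotated exon.

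Because the study looked for miRNAs that circSOD2 could bind, its exons were searched for the complement of the family's seed. The circle was taken as exons 5 to 7 of the SOD2 transcript SOD2-215, which sum to 462 bases. In this circle the 7 letters TGCACTG, the complement of bases 2 to 8 of the 3 guides, occur 1 time. The match is at chr6:159688205-159688211 on the minus strand of GRCh38, in exon 5 of SOD2-215 and in coding sequence, and is shown with 10 bases on each side.
circSOD2 exon 5: ctcttcagccTGCACTGaagttcaatg
The next base is an A, which also pairs with base 1 of the guides, and the 8 letters TGCACTGA were held by 1.08% of windows of 462 bases taken from the middle of the longest protein-coding transcript of 19469 genes. The 7 letters were held by 4.46% of these windows. Only the strand of the transcript was searched, and the circle was read across its junction. Each 8-letter match contains a 7-letter match. The complements of the passenger seeds, CAGAACT for miR-148b-5p and CAGAACC for miR-152-5p, have no match in this circle. These matches describe letters and are no evidence of binding.

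The NC libraries summed to 6386872 to 9245044 counts and the circSOD2-sh libraries to 3743860 to 4208276. Predicted miRNAs of the authors took 58.1% to 63.8% of an NC library but 3.54% to 4.93% of a circSOD2-sh library. Known miRNAs alone gave 2344870 to 3573638 counts per NC library and 3604691 to 4059249 per circSOD2-sh library. Counts were scaled by TMM over all miRNAs tested, and a level below is in normalized CPM, which is CPM after TMM scaling. A count of 3, taken as the floor of detection for counting error only, was worth 0.46 to 0.674 normalized CPM in an NC library and 0.51 to 0.602 in a circSOD2-sh library. Intervals of counting alone would be too narrow, since reads are PCR copies and not independent molecules. The epithelial miRNAs of the miR-200 family and miR-141 gave sums of 5086 to 5828 normalized CPM for NC and 4398 to 4868 for circSOD2-sh. The 5 renal tubule miRNAs gave sums of 39549 to 46440 for NC and 43792 to 54753 for circSOD2-sh. These sums rest mostly on miR-200b-3p and miR-200a-3p (means of 4076 and 1015 in NC) and on miR-30a-5p (42037 in NC). Far lower in NC were miR-200c-3p (15.6), miR-141-3p (11.9), miR-192-5p (501), miR-194-5p (44.7) and miR-215-5p (13.3). The hypoxia miRNA miR-210-3p, listed as a marker of VHL loss, lay at 20.0 to 27.0 for NC and 13.9 to 19.8 for circSOD2-sh. Markers of the labelled cell type were thus present at very unequal levels. Of the pancreatic acinar miRNAs, which mark a cell type rich in miR-148a, 2 of 3 are listed and both had at most 3 counts in any library. Of 4 leukocyte miRNAs, 2 had at most 3 counts in any library, and the liver miRNA miR-122-5p lay at 3.75 to 5.83 for NC and 1.36 to 2.49 for circSOD2-sh. A pair of libraries stood apart. In NC replicate 4 the stromal miRNAs miR-143-3p and miR-145-5p summed to 537 normalized CPM, while replicates 1 to 3 gave 7.08 to 8.36. In circSOD2-sh replicate 2 they summed to 219, with 7.65 to 12.4 elsewhere in that group, and neural miRNAs were at 5238 (476 to 494 elsewhere). Leukocyte miRNAs summed to 17.1 in NC replicate 4 and 14.7 in circSOD2-sh replicate 2, where the remaining libraries had 1.19 to 2.0 (NC) and 2.13 to 3.21 (circSOD2-sh). Erythroid miRNAs summed to 171 in NC replicate 4 (26.8 to 42.6 in its group) and 59.9 in circSOD2-sh replicate 2 (21.6 to 31.3 in its group). The part of these other miRNAs in the results below was not tested.

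The family held 16252 to 23891 counts per NC library and 14942 to 17152 per circSOD2-sh library. Nearly all of them fell on the guides of miR-148b and miR-148a. Of the 1482 known miRNAs, miR-148b-3p was 35th and miR-148a-3p 47th by mean level in NC, and they were 44th and 54th in circSOD2-sh. As bulk libraries, the samples cannot tell fewer cells with a miRNA from less of it per cell.

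Under TMM scaling, the level of miR-148a-3p was lower in circSOD2-sh than in NC. It was 1033, 1170, 1190 and 1350 normalized CPM in NC replicates 1 to 4 and 919, 928, 994 and 954 in circSOD2-sh replicates 1 to 4. Every NC library lay above every circSOD2-sh library. The mean was 1186 ± 130 normalized CPM in NC and 949 ± 33.8 in circSOD2-sh (SD, n = 4 each). The log2 fold change was -0.32 (standard error, SE, 0.09, adjusted p = 0.00991 by the quasi-likelihood test of edgeR), a ratio of 0.80. Omitting single libraries gave values from -0.50 (without circSOD2-sh replicate 3) to -0.30 (without NC replicate 4), all called. With NC replicate 4 and circSOD2-sh replicate 2 both left out it was -0.35 (edgeR adjusted p = 0.0042). Among the 463 known miRNAs tested, 163 had a lower log2 fold change, 28.5% were called lower, 27.0% higher and 55.5% in either direction, and 27.6% had all circSOD2-sh libraries below all NC libraries. All these values used TMM. When library totals replaced it, miR-148a-3p was at 0.65 (edgeR adjusted p = 7.64e-05) and called higher, as were 68.5% of all miRNAs tested.

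The level of miR-148b-3p, the most abundant member, overlapped between the groups. It was 2103, 2418, 2450 and 2191 normalized CPM in NC replicates 1 to 4 and 1929, 1614, 2318 and 1917 in circSOD2-sh replicates 1 to 4. The circSOD2-sh library of replicate 3 reached into the NC range, and the others lay below it. The mean was 2290 ± 170 normalized CPM in NC and 1945 ± 289 in circSOD2-sh (SD, n = 4 each). The log2 fold change was -0.24 (SE 0.11, edgeR adjusted p = 0.0848) and did not pass the threshold of 0.05. The call turns on single libraries. The adjusted p-value of edgeR was 0.0392 without NC replicate 1, 0.0457 without NC replicate 4, 0.0422 without circSOD2-sh replicate 1, 0.023 without circSOD2-sh replicate 2, 0.00688 without circSOD2-sh replicate 3 and 0.0481 without circSOD2-sh replicate 4. With NC replicate 4 and circSOD2-sh replicate 2 both left out it was -0.28 (edgeR adjusted p = 0.0173), in a fit where 37.0% of 945 miRNAs were called lower.

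The guide of miR-152 was far less abundant. It was at 25.6, 34.3, 26.3 and 56.0 normalized CPM in NC replicates 1 to 4 and at 23.3, 36.5, 29.3 and 24.2 in circSOD2-sh replicates 1 to 4. The highest library of each group was the one that also stood apart in the stromal miRNAs, NC replicate 4 and circSOD2-sh replicate 2, and the part of those other RNAs in these values was not tested. The mean was 35.5 ± 14.2 normalized CPM in NC and 28.3 ± 6.08 in circSOD2-sh (SD, n = 4 each). The log2 fold change was -0.32 (SE 0.27, edgeR adjusted p = 0.312). Without NC replicate 4 it was -0.06, and without circSOD2-sh replicate 2 it was -0.58 (edgeR adjusted p = 0.0740). The SD within NC exceeded the difference between the means.

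**Figure D1:**
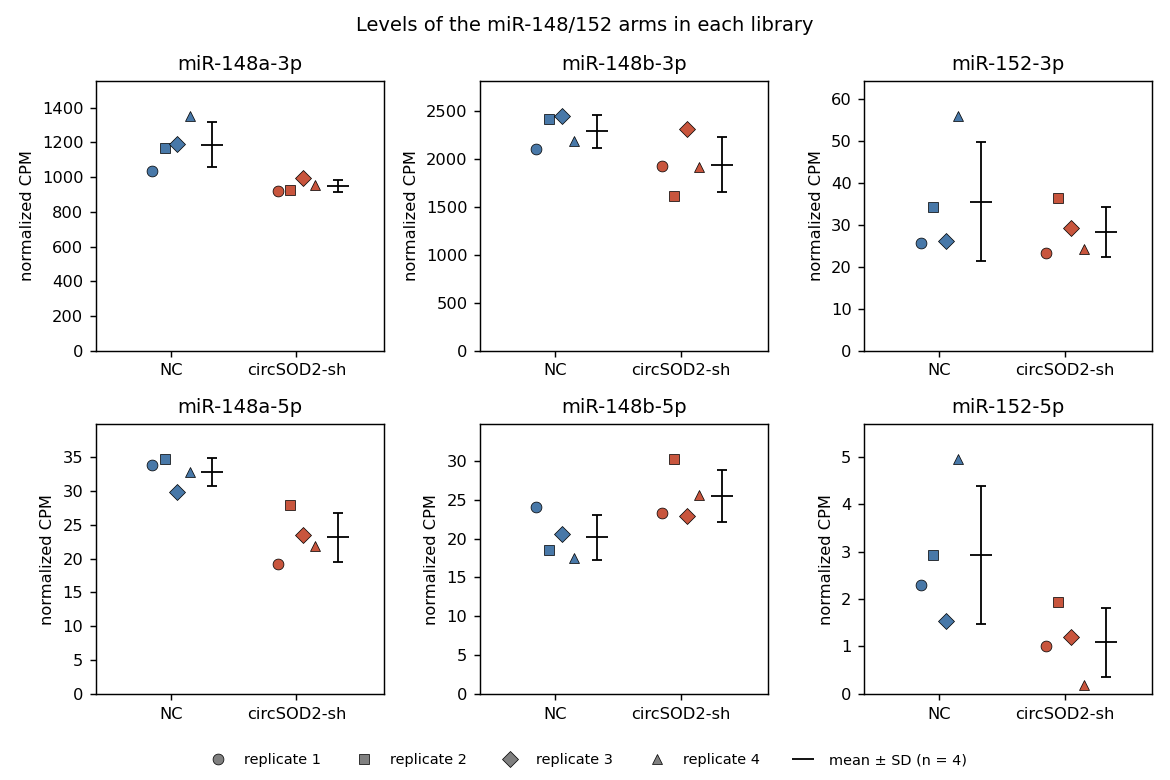
Level of each arm of the family in normalized CPM (vertical axes, each from 0) in the 4 NC and 4 circSOD2-sh libraries; symbols mark the replicate number, and bars give the mean ± SD (n = 4). The groups do not overlap for miR-148a-3p and miR-148a-5p, and NC replicate 4 is the highest library for both arms of miR-152.

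Of the 5 members kept by edgeR's low-count filter, 2 were called lower in circSOD2-sh and 0 higher with TMM at an adjusted p-value under 0.05. Without circSOD2-sh replicate 2, 3 or 4 in turn this number was 4, because miR-148b-3p and then also miR-152-5p were called. In those fits miR-152-5p passed the filter, so 6 members were tested there. Its higher counts are those of NC, and its entry on leaving out a circSOD2-sh library is no support for a change. All miRNAs called numbered 661, 630 and 594 in those fits (358, 351 and 322 lower), against 588 with all libraries (290 lower). The filter was applied anew in each fit, so the miRNAs tested were not the same and these totals give no share. Over all 895 miRNAs tested, 65.7% were called, 32.4% lower and 33.3% higher, and 60.3% had groups that did not overlap. At an unadjusted p-value under 0.05 the 2 members were again the only ones, since miR-148b-3p stood at 0.0599, miR-148b-5p at 0.058 and miR-152-3p at 0.256 from edgeR. At least the 65.7% of all miRNAs called also pass that threshold. Calls of 2 in 5 members lie below the share of all miRNAs called in either direction and near the share called lower, so nothing particular to the family is read from them.

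The make-up of the guide pool was compared next, because a ratio between arms of one library does not depend on how libraries are scaled to each other. In NC, miR-148b-3p held 65.2% ± 2.90 of the guide counts, miR-148a-3p 33.7% ± 2.53 and miR-152-3p 1.01% ± 0.378 (SD, n = 4). In circSOD2-sh the shares were 66.3% ± 2.82, 32.7% ± 2.58 and 0.985% ± 0.29 (SD, n = 4). Within a library there were 1.95 ± 0.216 counts of miR-148b-3p for each count of miR-148a-3p in NC and 2.04 ± 0.245 in circSOD2-sh (SD, n = 4 each). Ligation and amplification favour some small RNAs over others and were not corrected for, so these shares are shares of reads.

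No ratio between 2 guides differed beyond the spread between replicates. The log2 ratio of miR-148a-3p to miR-148b-3p changed by -0.07 (SE 0.12, exact two-sided permutation test, p = 0.571, adjusted p = 0.971 over the 3 ratios). That of miR-148a-3p to miR-152-3p changed by -0.04 (SE 0.24, exact permutation p = 0.857, adjusted p = 0.971), and that of miR-148b-3p to miR-152-3p by 0.03 (SE 0.35, exact permutation p = 0.971, adjusted p = 0.971). With 4 libraries in each group no p-value of this test can be under 0.0286. The balance between the miR-148 guides was measured more closely than their balance with miR-152-3p, as the SEs show. In NC replicate 4 the log2 ratio of miR-148a-3p to miR-148b-3p was -0.70, while NC replicates 1 to 3 lay at -1.05 to -1.03. The changes of these ratios turned sign with single libraries. For miR-148a-3p to miR-148b-3p the change was 0.01 without NC replicate 4. For miR-148a-3p to miR-152-3p it was -0.22 without NC replicate 4 and 0.09 without circSOD2-sh replicate 2, and for miR-148b-3p to miR-152-3p -0.23 and 0.24.

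**Figure D2:**
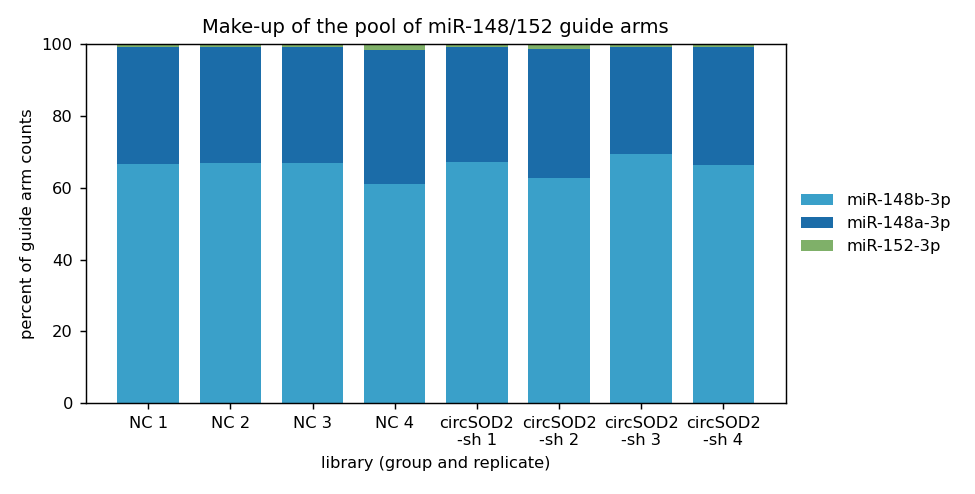
Percent of guide arm counts (vertical axis) held by miR-148b-3p, miR-148a-3p and miR-152-3p in each of the 8 libraries (horizontal axis); the 3 parts of a bar sum to 100. The share of miR-148b-3p lies from 60.9% to 66.8% in the NC libraries and from 62.6% to 69.4% in the circSOD2-sh libraries.

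Of the passenger arms, miR-148a-5p was lower in circSOD2-sh under TMM scaling and the others were not called in the same fit. The level of miR-148a-5p was 33.7, 34.6, 29.8 and 32.8 normalized CPM in NC replicates 1 to 4 and 19.2, 27.9, 23.5 and 21.9 in circSOD2-sh replicates 1 to 4. All NC libraries lay above all circSOD2-sh libraries. The mean was 32.8 ± 2.08 normalized CPM in NC and 23.1 ± 3.64 in circSOD2-sh (SD, n = 4 each), and the log2 fold change was -0.50 (SE 0.14, edgeR adjusted p = 0.0116). It was called without each of the 8 libraries in turn, at -0.71 (without circSOD2-sh replicate 2) to -0.54 (without NC replicate 1). With NC replicate 4 and circSOD2-sh replicate 2 both left out it was -0.71 (edgeR adjusted p = 0.000726). All these fits used TMM. When library totals replaced it, miR-148a-5p was at 0.46 (edgeR adjusted p = 0.0112) and called higher, as were 68.5% of all miRNAs tested.

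The level of miR-148b-5p was 24.1, 18.5, 20.6 and 17.5 normalized CPM in NC replicates 1 to 4 and 23.3, 30.2, 22.9 and 25.6 in circSOD2-sh replicates 1 to 4. The groups overlapped through NC replicate 1. The mean was 20.2 ± 2.91 normalized CPM in NC and 25.5 ± 3.36 in circSOD2-sh (SD, n = 4 each). The log2 fold change was 0.34 (SE 0.16, edgeR adjusted p = 0.0825), the only one of the 5 tested members above 0 with TMM. It was 0.14 (adjusted p = 0.452) without circSOD2-sh replicate 2 and 0.08 (adjusted p = 0.629) without that library and NC replicate 4, both from edgeR.

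Counts of miR-148a-5p were 1.65 ± 0.26 times those of miR-148b-5p in NC and 0.907 ± 0.0896 times in circSOD2-sh (SD, n = 4 each). This ratio spanned 1.40 to 1.88 for NC and 0.825 to 1.03 for circSOD2-sh, so the order of both passengers differed between the groups in all but circSOD2-sh replicate 3. It was chosen after the values were seen and was not tested.

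The passenger of miR-152 was near the floor, with counts of 15, 19, 9 and 22 in NC replicates 1 to 4 and of 6, 11, 6 and 1 in circSOD2-sh replicates 1 to 4. The ranges overlapped, and circSOD2-sh replicate 4 was under the floor. The level was 2.93 ± 1.46 normalized CPM in NC and 1.09 ± 0.725 in circSOD2-sh (SD, n = 4 each). This arm did not pass the low-count filter. In the fit with no such filter its log2 fold change was -1.42 (SE 0.49, edgeR adjusted p = 0.038), where 9.42% of the 3112 miRNAs were called lower. With DESeq2 it was -1.47 (adjusted p = 0.0497, just under the threshold), in a fit where 621 miRNAs were called, 315 of them lower.

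The 3p arm was the more abundant arm of each hairpin in every library. The mean ratio of 3p to 5p counts in NC was 36.4 for miR-148a, 115 for miR-148b and 12.8 for miR-152. In circSOD2-sh it was 41.8, 78.1 and 50.5. The last value is drawn up by circSOD2-sh replicate 4, which had 136 counts of miR-152-3p and 1 of miR-152-5p.

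The balance of the arms was compared as the log2 ratio of 5p over 3p, after adding 0.5 normalized CPM to each, with limma over the 117 hairpins with both arms past the filter. For miR-148a the ratio was -5.15 ± 0.20 in NC and -5.34 ± 0.22 in circSOD2-sh (SD, n = 4 each), and its change of -0.19 (SE 0.16, limma adjusted p = 0.326) did not pass the test. With NC replicate 4 and circSOD2-sh replicate 2 both left out the change was -0.35 (limma adjusted p = 0.0632). Both arms of miR-148a were called lower with TMM, by -0.50 for 5p and -0.32 for 3p on the log2 scale.

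For miR-148b the 5p arm gained on the 3p arm. The log2 ratio was -6.42, -6.99, -6.86 and -6.93 in NC replicates 1 to 4 and -6.34, -5.72, -6.63 and -6.20 in circSOD2-sh replicates 1 to 4. NC replicate 1 lay within the circSOD2-sh range. The change was 0.58 (SE 0.21, limma adjusted p = 0.0417), and the 5p arm held 0.88% ± 0.171 of the hairpin's counts in NC and 1.33% ± 0.365 in circSOD2-sh (SD, n = 4 each). Over all 117 hairpins 58.1% were called and 30.8% were called with the 5p arm gaining, the median absolute change was 0.60, and 59 hairpins changed by more than miR-148b. The call was lost without NC replicate 2 (adjusted p = 0.104), NC replicate 3 (0.0825), NC replicate 4 (0.0854), circSOD2-sh replicate 1 (0.0640), circSOD2-sh replicate 2 (0.0819) or circSOD2-sh replicate 4 (0.0846), all from limma. Without both NC replicate 4 and circSOD2-sh replicate 2 the change was 0.37 (limma adjusted p = 0.150).

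For miR-152 the log2 ratio was -3.22, -3.35, -3.72 and -3.37 in NC replicates 1 to 4 and -3.97, -3.92, -4.13 and -5.19 in circSOD2-sh replicates 1 to 4. The groups did not overlap. Of the 117 hairpins with both arms past the filter, 55.6% did not overlap, but miR-152 is not among them. That share over hairpins with no low-count filter was not computed. The 5p arm held 7.43% ± 1.28 of the hairpin's counts in NC and 3.48% ± 1.89 in circSOD2-sh (SD, n = 4 each). In a fit over 425 hairpins with no low-count filter, added after the data were seen, the change was -0.88 (SE 0.29, limma adjusted p = 0.0658), and 25.6% of the hairpins were called. The lowest library rests on 1 count of miR-152-5p. The nearest libraries of the groups, NC replicate 3 and circSOD2-sh replicate 2, had 9 and 11 counts of this arm, so their separation rests on few reads.

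**Figure D3:**
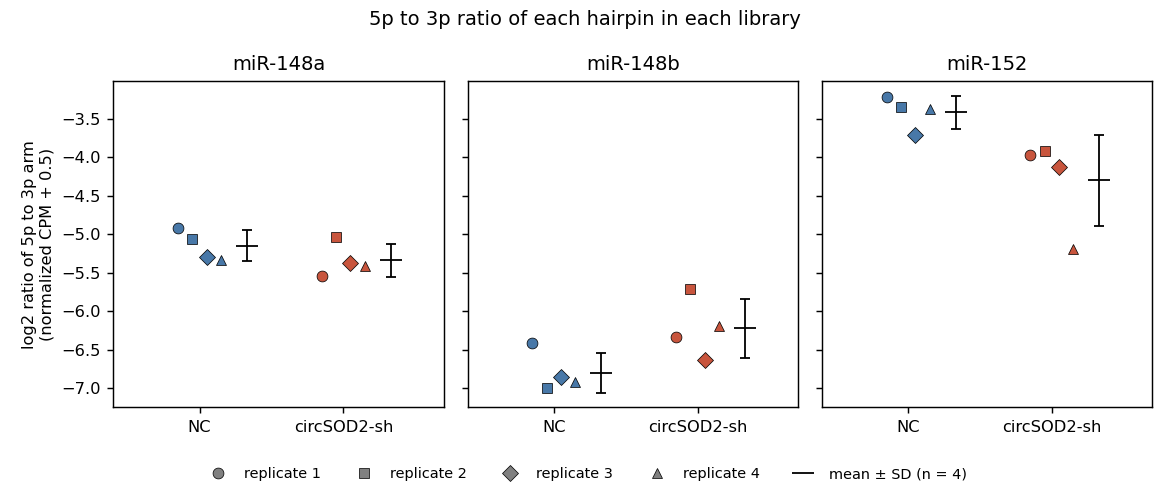
Log2 of 5p over 3p arm (vertical axis, 0.5 normalized CPM added to each arm) of the 3 hairpins in the 4 NC and 4 circSOD2-sh libraries; symbols mark the replicate number, and bars give the mean ± SD (n = 4). All ratios are below 0, the groups overlap for miR-148a and miR-148b, and they do not for miR-152, where circSOD2-sh replicate 4 is at -5.19. The miR-152 ratios rest on 1 to 22 counts of miR-152-5p per library.

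The direction of both called members, miR-148a-3p and miR-148a-5p, depends on how the libraries are scaled. When library totals replaced TMM, the median over all 895 miRNAs moved from -0.002 to 0.963 on the log2 scale. On that scale miR-148a-3p was 0.65, miR-148a-5p 0.46, miR-148b-3p 0.73, miR-148b-5p 1.30 and miR-152-3p 0.64, all called higher (adjusted p-values from 2.79e-05 to 0.0338 from edgeR), where 68.5% of all miRNAs were called higher and 17.7% lower. With upper-quartile factors 4 members were called higher, as were 63.7% of all miRNAs. Another scaling moves all miRNAs by about the same amount, so values relative to the median of all miRNAs tested are alike by construction among these fits. That of miR-148a-3p was -0.32 with TMM, -0.32 with RLE size factors, -0.30 with upper-quartile factors and -0.32 with library totals, and that of miR-148b-5p was 0.34, 0.33, 0.33 and 0.34 in the same order. When known miRNAs alone were fitted, the values relative to their own median were -0.19 for miR-148a-3p, -0.10 for miR-148b-3p and 0.46 for miR-148b-5p. With TMM over all miRNAs, the values of these arms relative to the median of the known miRNAs were -0.21, -0.13 and 0.45. As a share of the counts of known miRNAs alone, the 6 members together took 0.66% ± 0.0277 in NC and 0.433% ± 0.0447 in circSOD2-sh (SD, n = 4 each). That share depends on the levels of all other known miRNAs. With TMM on known miRNAs alone the log2 fold changes were -0.27 for miR-148a-3p, -0.18 for miR-148b-3p and 0.38 for miR-148b-5p. The difference in predicted miRNAs between the groups moves with the scalings over all miRNAs, and its part was not tested.

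**Figure D4:**
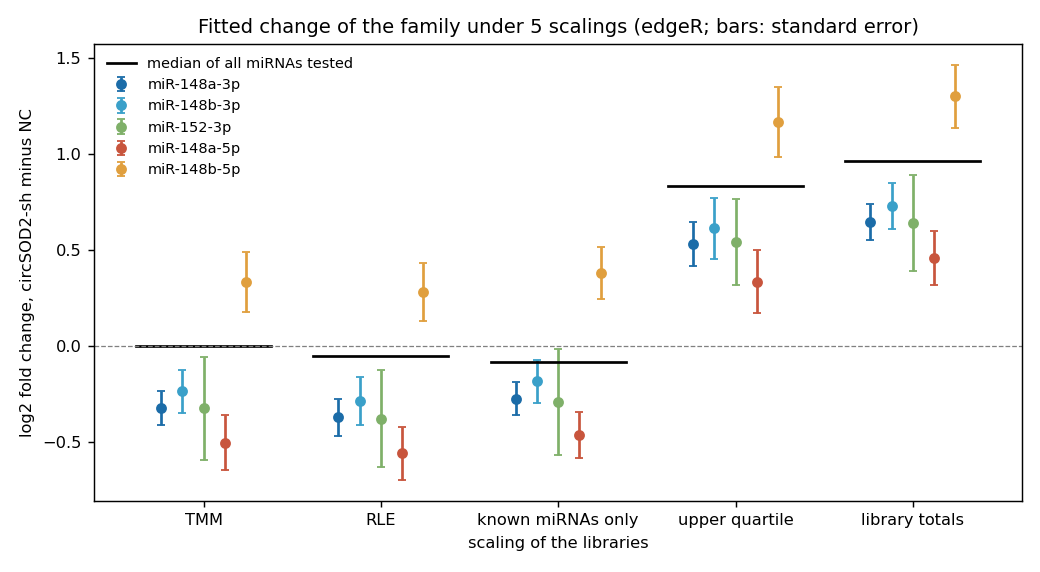
Log2 fold change, circSOD2-sh minus NC (vertical axis), of the 5 members tested, with SEs as bars, under 5 scalings of the libraries in edgeR (horizontal axis); the black line is the median of all miRNAs tested in that fit. The guides and miR-148a-5p lie below the line and miR-148b-5p above it in each fit, while the line itself moves from -0.002 with TMM to 0.963 with library totals.

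Other miRNAs known to target DNA methyltransferases were read beside the family. Of 8 listed, all 8 were tested, 1 was higher and 1 lower in circSOD2-sh (27.0% and 28.5% of the known miRNAs tested), and their median log2 fold change was -0.22, against -0.11 over the 463 known miRNAs tested. The most abundant was miR-29a-3p, which targets DNMT3A and DNMT3B, at 22804 ± 461 normalized CPM in NC and 17849 ± 1107 in circSOD2-sh (SD, n = 4 each), with a log2 fold change at -0.35 (SE 0.06, edgeR adjusted p = 0.000696). The next, miR-29b-3p, had a log2 fold change of -0.11 (SE 0.14, edgeR adjusted p = 0.496). The member that rose was miR-342-3p, which targets DNMT1, with a log2 fold change of 5.54 (SE 0.24, edgeR adjusted p = 1.74e-08), and the study chose this miRNA as a candidate on the same libraries, so its rise is no independent evidence. With library totals miR-29a-3p and miR-29b-3p turned to 0.61 and 0.85 and miR-342-3p stood at 6.49, while relative to the median of all miRNAs they were -0.35, -0.11 and 5.53.

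The guides of miR-130, miR-301 and miR-454 carry the letters AGUGCA of the miR-148/miR-152 seed shifted by 1 base, at bases 2 to 7. An example is printed with its own seed in capitals.
miR-454-3p: uAGUGCAAuauugcuuauagggu
All 5 were tested, of which 2 were called lower and 1 higher, where 28.5% and 27.0% of known miRNAs were, and their median log2 fold change was -0.41, against -0.11 over known miRNAs. Calls of 3 in 5 are near the 55.5% of known miRNAs called in either direction. The most abundant, miR-130a-3p, had a log2 fold change of -0.44 (SE 0.11, edgeR adjusted p = 0.00631), and miR-454-3p one of 0.50 (SE 0.19, edgeR adjusted p = 0.0457). With library totals these were 0.52 and 1.45, and relative to the median of all miRNAs -0.44 and 0.49. The call of miR-454-3p was lost with RLE size factors (edgeR adjusted p = 0.0555).

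Likeness of pattern was measured as the root mean square difference over the 8 libraries between log2 profiles centred on their means, among known miRNAs with a mean of at least 100 normalized CPM. Closest to miR-148a-3p were miR-378a-3p (0.0895), miR-140-3p (0.0945) and miR-125b-2-3p (0.0953). Closest to miR-148b-3p were miR-98-5p (0.0774), let-7f-5p (0.0819) and let-7g-5p (0.0916). Closest to miR-152-3p were miR-126-3p (0.194), miR-200a-3p (0.243) and let-7c-5p (0.256). The profile of miR-148b-3p ranked 30th of 134 in likeness to that of miR-148a-3p, at 0.154, so other miRNAs were nearer to each miR-148 guide than they were to one another.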

How the data were processed

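The authors deposited read counts per mature miRNA for each of the 8 libraries without normalization, and CPM over larger totals of their own, of which the listed counts are 93.3% to 93.9% (NC) and 83.7% to 85.7% (circSOD2-sh). A table of their own comparison (mean CPM, fold changes, p-values and calls) was not used. The submitters' processing notes list FastQC 0.11.2, Trimmomatic 0.36, Bowtie 1.1.1 and GRCh38. The counting tool and miRNA annotation are not given in the sources used here.

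Columns were matched to samples by name. Counts of all 3112 miRNAs entered 1 fit of edgeR 4.0.16 under R 4.3.3 (filterByExpr with a minimum count of 10, TMM, quasi-likelihood test, prior count 0.125, Benjamini-Hochberg adjustment over 895 miRNAs). Arm ratios were fitted with limma 3.58.1, and guide ratios were tested with exact permutations in scipy 1.17.1. Alternatives were DESeq2 1.42.0, other scalings, filters and prior counts, limma on log2-transformed CPM with 1 or 0.1 added, which understates changes of low values, a replicate block and left-out libraries. The fits were tested on simulated data, drawn for both groups from a common mean profile apart from set changes. Those data lacked the group difference in predicted miRNAs, so the test does not bear on the choice of scaling. Named miRNAs were the 6 members, the 2 most abundant and the 2 most changed called miRNAs of each list, and the 3 closest profiles per guide. The members and lists were chosen with earlier results of these data known. Sequences are from RefSeq (5 of 6 members matched). No pair of replicates within a group was as alike as independent reads of 1 library would be (chi-square divided by its degrees of freedom, 5.27 to 62.2). Reads are PCR copies and not independent, so these values do not show that the samples themselves differed. Figures were drawn with matplotlib 3.10.9.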

Additional observations from a re-analysis of the deposited data

Results flagged for a closer look

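In 24 groups of 4 values (6 levels, 3 guide ratios and 3 arm ratios in each group), 3 had a library far from the other 3, where chance gives about 1.2. In NC replicate 4 the log2 ratio of miR-148a-3p to miR-148b-3p was -0.698, while replicates 1 to 3 lay at -1.05 to -1.03. In circSOD2-sh replicate 2 the log2 ratio of miR-148b-3p to miR-152-3p was 5.45, while the remaining replicates lay at 6.28 to 6.34. In circSOD2-sh replicate 4 the log2 ratio of miR-152-5p to miR-152-3p was -5.19, against -4.13 to -3.92, and it rests on 1 count of miR-152-5p. Without NC replicate 4 and circSOD2-sh replicate 2, which also stood apart in stromal miRNAs, the change of the ratio of miR-148a-3p to miR-148b-3p was -0.06.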

How the results depend on the processing

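Scaling had the greatest effect, and the cause of the shift was not tested. With library totals the values of miR-148a-3p, miR-148a-5p, miR-148b-3p and miR-152-3p turned to 0.647, 0.459, 0.73 and 0.642 and miR-148b-5p rose to 1.30, so that 5 members were called, all higher. With upper-quartile factors the same 5 stood at 0.531, 0.335, 0.613, 0.541 and 1.17, and 4 were called. With limma on log2 of CPM + 1 they were 0.508, 0.298, 0.579, 0.528 and 1.11, and with CPM + 0.1 they were 0.508, 0.309, 0.579, 0.547 and 1.16, with 4 called in each. In these limma fits 724 (561 higher, 163 lower) and 721 (558 higher, 163 lower) of the 895 miRNAs were called. All miRNAs called numbered 588 (298 higher, 290 lower), against 771 with library totals (613 higher, 158 lower), 730 with upper-quartile factors (570 higher, 160 lower), 246 with known miRNAs only and 361 with a mean of at least 50 counts, the last 2 over fewer miRNAs. The call of miR-148b-5p was gained with known miRNAs only (0.379) and with a mean of at least 50 counts (0.372). That of miR-148b-3p was gained with NC replicate 1 (-0.321) or circSOD2-sh replicate 1 (-0.262), 2 (-0.367) or 3 (-0.30) as TMM reference, and without NC replicate 4 and circSOD2-sh replicate 2 together (-0.284), where the ratio of the miR-148b arms, at 0.368, lost its call.

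With each library left out in turn, the number of members called lay between 2 and 4, that of all miRNAs between 537 and 661, miR-148b-3p between -0.484 and -0.252, and the arm ratio of miR-148b between 0.41 and 0.716. The filter was applied anew in each of these fits, so the totals need not be over the same miRNAs. With no low-count filter on the arms, added after the data were seen, the arm ratio of miR-148b was 0.577 and lost its call.

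The replicate number as a block moved the count of all calls to 574 and kept 2 members called, and the arm ratio of miR-148b, at 0.576, lost its call (adjusted p = 0.0637 from limma). The labels give no pairing beyond the number. Deviations of same-numbered libraries had correlations of 0.26, -0.0994, 0.0964 and -0.174, and not every library correlated best with its own number. Whether same-numbered libraries were handled together was not tested.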
